A study of Rattus norvegicus with 6 samples.

Results

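The mitochondrially encoded genes are the rows of the rat count table that lie on chromosome MT, and there are 37 of them among 20609 genes. By the gene type in the table they are 13 protein-coding genes, 2 rRNA genes and 22 tRNA genes. They were measured by RNA-seq of poly-A RNA in cells labelled PC12, a line from a rat pheochromocytoma, which is a tumor of the adrenal medulla. The study asked how PCBP-1, an RNA-binding protein, changes transcription and splicing. It compared 3 libraries of control cells (control) with 3 libraries of cells given an EGFP-tagged PCBP-1 plasmid (PCBP1-OE). The paper does not name a plasmid for the controls. The PCBP-1 plasmid was delivered by lipid transfection, although the paper also calls the overexpression stable. No row was matched to the gene for PCBP-1, which is not analysed here, and these libraries therefore give no check of its overexpression. Per control library there were 20268725, 21256970 and 22315623 counts assigned to genes, against 21367196, 19822383 and 19730209 per PCBP1-OE library. The paper calls the replicates biological, but the sources used here do not say that the 3 libraries of a group came from separate cultures. The p-values therefore judge differences against the spread between these libraries, which may be technical. The spread between libraries of a group exceeded sampling noise (chi-square of 5.49 to 16 per gene), and each was taken as 1 sample.

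The labelled cell line was checked against markers of chromaffin cells, the catecholamine-producing cells of the adrenal medulla, and most of those markers were nearly absent. The chromaffin markers therefore do not bear out the label PC12, and the identity of the cells is uncertain. Of 7 such markers 6 were matched, and their summed level was 8.19, 9.69 and 9.14 CPM (counts scaled to 1e+06 per library) in the controls against 8.89, 9.28 and 9.83 in PCBP1-OE. Most of that was Th, the rate-limiting enzyme of catecholamine synthesis, with 141 to 185 counts per library, and the vesicle transporter Slc18a1 had 17 to 28. Ddc, Dbh, Chga and Chgb, which are defining genes of the same cells, had 0 to 9 counts per library. Pdgfra, from a list of fibroblast markers, had 3939 to 4941 counts, while Col1a1 had 61 to 74 and Dcn 0 to 5. The 3 fibroblast markers matched summed to 219, 225 and 225 CPM in the controls against 216, 202 and 209 CPM in PCBP1-OE. In the gene-wise test used below, Pdgfra was lower in every PCBP1-OE library (log2 fold change -0.14, standard error 0.043, edgeR adjusted p = 0.0644). Slc18a1 was higher in every PCBP1-OE library (0.47, standard error 0.28, edgeR adjusted p = 0.296), and Th, Cd3e and Col1a1 overlapped. The 4 leukocyte markers summed to between 3.09 and 4.05 CPM, mostly from Cd3e, with Ptprc at 0 to 3 counts. The 2 endothelial markers summed to at most 0.555 CPM. The part of these markers in the results below was not tested.

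Mitochondrial DNA is a small circle that is transcribed from both strands into long precursor RNAs. Transfer RNAs lie between most of the messenger and ribosomal RNAs in these precursors, and their excision by RNase P and a partner enzyme releases the mature RNAs. Because the members are cut from shared precursors, they are not independent of each other, and their final levels depend on processing, tailing and decay. The messenger RNAs encode core subunits of the respiratory chain and of ATP synthase, the rRNAs build the mitochondrial ribosome, and the tRNAs decode its messages. Most mitochondrial mRNAs carry a short poly-A tail, whereas mature mitochondrial tRNAs carry none and the rRNAs only a few added bases, so poly-A selection captures these classes unequally.

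Together the 37 genes took 8.42%, 8.24% and 7.99% of counts in the controls and 7.53%, 7.91% and 8.21% in PCBP1-OE. The groups overlapped, since PCBP1-OE replicate 3 lay above control replicate 3. The mean share was 8.22% ± 0.217 (SD, n = 3) in the controls against 7.88% ± 0.344 in PCBP1-OE, and the difference of -0.335 percentage points gave p = 0.2 in a two-sided exact permutation test, in which 3 against 3 libraries cannot go below 0.1. Without PCBP1-OE replicate 1 the difference was -0.156 points, and over the TMM effective library size, the scaling used in the gene-wise test, it was -0.570. The 3 classes of RNA were also taken one at a time. Only rRNA and protein-coding counts were set against each other in a test, as a ratio that overlapped between groups (exact permutation p = 0.2). The protein-coding share was lower in every PCBP1-OE library than in every control, the tRNA share was higher in every PCBP1-OE library, and the rRNA share overlapped.

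**Figure D1:**
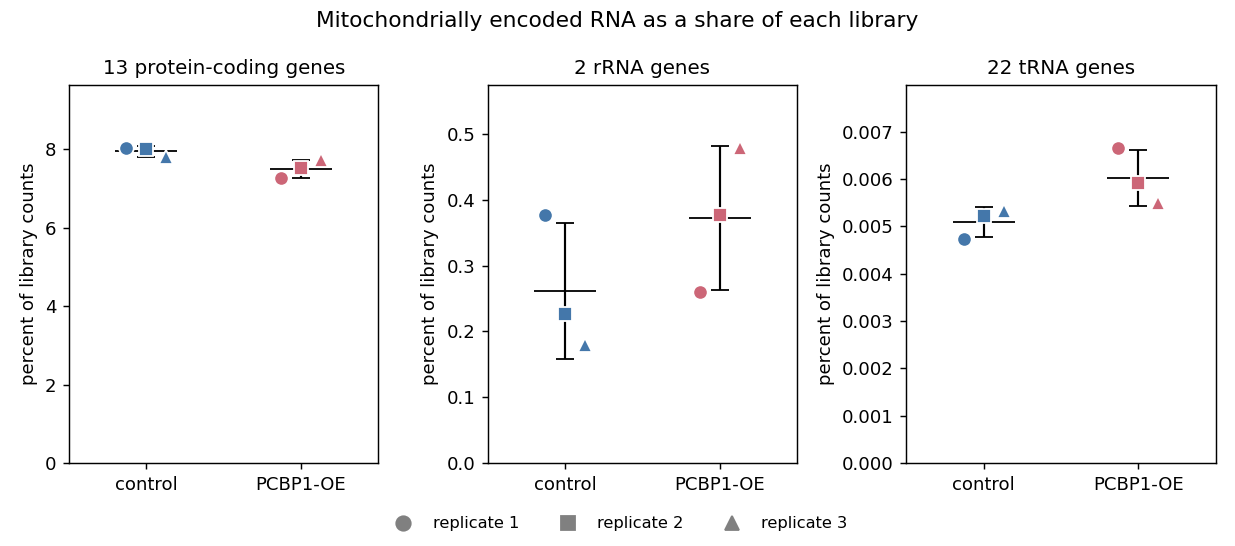
Percent of all counts on genes that fell on mitochondrially encoded protein-coding, rRNA and tRNA genes in each library, with 3 control libraries in blue and 3 PCBP1-OE libraries in red. Points are libraries, horizontal lines are group means and bars are 1 SD. The protein-coding points of PCBP1-OE (7.26 to 7.73%) sit below the controls (7.8 to 8.04%), the tRNA points sit above them, and the rRNA points overlap.

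The 13 protein-coding genes took 8.04%, 8.01% and 7.8% of counts in controls. In PCBP1-OE they took 7.26%, 7.53% and 7.73%. Control replicate 3 and PCBP1-OE replicate 3 lay nearest to each other, yet their 95% Wilson intervals of 7.79 to 7.82% and 7.72 to 7.74% did not overlap. These intervals cover counting error only, which is small beside the spread between libraries. The mean was 7.95% ± 0.128 in the controls against 7.51% ± 0.235 in PCBP1-OE (n = 3 each), a ratio of 0.944. The difference of -0.446 points had p = 0.1, the smallest the exact permutation test allows. When counts were instead divided by the TMM effective library size, the difference was -0.672 points, control replicate 3 stood at 7.77% and PCBP1-OE replicate 3 at 7.78%, so that the groups touched and p was 0.2 in the exact permutation test. In bulk RNA, fewer cells of a type and less RNA per cell cannot be told apart, and a share depends on the amount of nuclear RNA as well.

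Summed by the complex that each protein joins, the shares kept this order to different degrees. The 3 subunits of cytochrome c oxidase (complex IV) took 3.30%, 3.34% and 3.27% of counts in the controls against 2.95%, 3.11% and 3.16% in PCBP1-OE, with no overlap. The single subunit of complex III, Mt-cytb, took 0.847%, 0.868% and 0.873% in the controls against 0.790%, 0.821% and 0.844% in PCBP1-OE, also with no overlap, although the closest libraries were almost level. For the 7 subunits of complex I, the NADH dehydrogenase that feeds the chain, controls held 2.71%, 2.63% and 2.56% and PCBP1-OE 2.46%, 2.51% and 2.59%, and these groups overlapped. The 2 subunits of ATP synthase (complex V) overlapped as well, at 1.18%, 1.17% and 1.11% in the controls against 1.06%, 1.08% and 1.13% in PCBP1-OE. The ratio of group means was 0.931 for complex IV, 0.949 for complex III, 0.958 for complex I and 0.945 for complex V. These sums were not planned and were given no test.

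Gene by gene, all 13 protein-coding genes and both rRNA genes had enough counts for edgeR's quasi-likelihood test, and so did 8 of the 22 tRNA genes. Of these 23 members, 1 passed a false discovery rate (FDR) of 0.05, the tRNA gene AY172581.21, which was lower in PCBP1-OE. Across all 12624 genes tested, 9.45% passed in either direction, 4.45% as higher and 5.0% as lower. With a change of at least 2-fold also required, AY172581.21 was still called, beside 0.190% of all genes. No protein-coding gene of the mitochondrial genome passed in this edgeR test, where the lowest adjusted p was 0.0568.

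The protein-coding genes nevertheless leaned to one side. Of the 13, 11 had a log2 fold change below 0 (10 under upper-quartile scaling, where Mt-nd5 turned to just above 0), and 8 had an unadjusted p under 0.05, all of them lower in PCBP1-OE. Among all genes tested, 14.8% were lower and 13.6% higher at that unadjusted p. The 8 became 5 without control replicate 1, 3 without PCBP1-OE replicate 1 and 4 without PCBP1-OE replicate 2, where 9.90%, 10.2% and 11.2% of all genes were lower, and 0 with the replicate number as a block, where 10.8% were. The median log2 fold change of the 13 genes was -0.14, against 0.0029 over all genes. In 4 of the 13 every PCBP1-OE library was below every control, and in none of them above, where the shares of all tested genes were 16.5% and 14.1%. The fold changes were small, from -0.23 to 0.094 on the log2 scale.

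The count of calls among the protein-coding genes depended on the test and on single libraries. From the same counts DESeq2 called 6, limma-voom 1 and edgeR without a filter on low counts 8. Over all genes these fits called 1367 of 20609 (6.63%), 1197 of 12624 (9.48%) and 2090 of 20609 (10.1%). The 20609 genes of DESeq2 include those it gave no adjusted p, so its share cannot be set directly against that of limma-voom. Leaving out control replicate 3 gave 9 calls in edgeR, of which Mt-nd4l was higher and 8 lower, in a fit that called 22.3% of all genes. Leaving out PCBP1-OE replicate 3 gave 7 calls, all lower, where 5.42% of all genes were called. Leaving out any of the other 4 libraries gave 0 calls, and 0.375 to 1.92% of all genes were called in those fits.

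**Figure D2:**
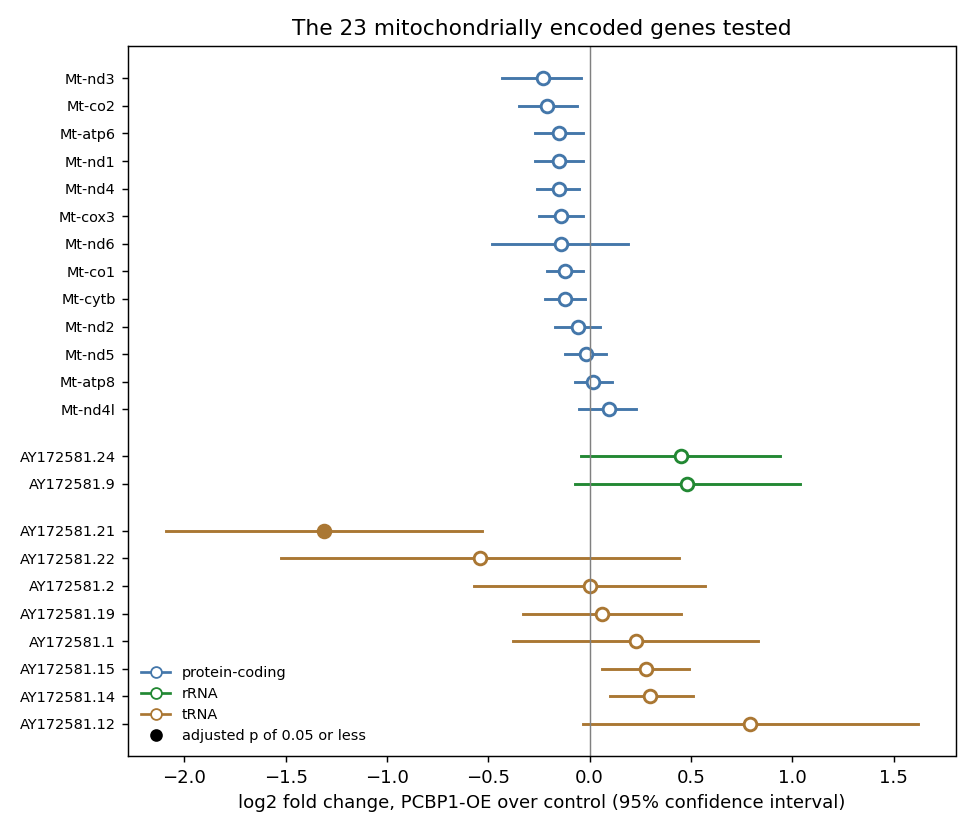
Log2 fold change of PCBP1-OE over control for the 23 mitochondrially encoded genes tested, with 95% confidence intervals from edgeR's quasi-likelihood fit, for 13 protein-coding (blue), 2 rRNA (green) and 8 tRNA genes (brown). Filled points passed an FDR of 0.05. Most protein-coding genes lie between -0.23 and 0, both rRNA genes lie above 0 with wide intervals, and AY172581.21 at -1.31 is the filled point.

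In complex IV, Mt-co1 (ENSRNOG00000034234), the catalytic subunit, had 16287, 16391 and 16068 TMM-scaled CPM in the controls against 14437, 15085 and 15286 in PCBP1-OE. The groups did not overlap, and the controls lay close together. The fitted log2 fold change was -0.12 (standard error 0.040, 95% confidence interval -0.21 to -0.03, edgeR adjusted p = 0.0720). Mt-co2 (ENSRNOG00000030371), which receives electrons from cytochrome c, had 7894, 7702 and 6916 CPM in the controls against 5895, 6479 and 7148 in PCBP1-OE. Here PCBP1-OE replicate 3 was above control replicate 3, while the remaining libraries were apart. In log2 terms the fold change was -0.21 (standard error 0.067, edgeR adjusted p = 0.0685). Mt-cox3 (ENSRNOG00000030700), the remaining mitochondrial subunit of this core, had 9937, 9947 and 9520 CPM in the controls against 8277, 9025 and 9385 in PCBP1-OE. The groups did not overlap, and its log2 fold change was -0.14 (standard error 0.050, edgeR adjusted p = 0.0865), or -0.091 without PCBP1-OE replicate 1.

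Mt-cytb (ENSRNOG00000031766), cytochrome b of complex III, had 8751, 8837 and 8689 CPM in the controls against 7663, 8070 and 8499 in PCBP1-OE. All PCBP1-OE libraries were lower, with replicate 3 closest to the controls, and the log2 fold change was -0.12 (standard error 0.045, edgeR adjusted p = 0.112).

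In complex I, Mt-nd4 (ENSRNOG00000029707), a proton-pumping membrane subunit, came nearest to the threshold. It had 7959, 7645 and 7250 CPM in the controls against 6635, 6803 and 7105 in PCBP1-OE, with no overlap. Its log2 fold change was -0.15 (standard error 0.047, 95% confidence interval -0.26 to -0.05, edgeR adjusted p = 0.0568). It passed in 5 of 14 alternatives, and its adjusted p ranged from 0.000243 to 0.258 over them. Mt-nd1 (ENSRNOG00000030644), which lies at the quinone-binding end of the membrane arm, had 6082, 5783 and 5427 CPM in the controls against 4901, 5161 and 5558 in PCBP1-OE. PCBP1-OE replicate 3 lay above control replicate 3, and the log2 fold change was -0.15 (standard error 0.055, edgeR adjusted p = 0.102). Mt-nd3 (ENSRNOG00000033615), a small membrane subunit, had 1023, 991 and 771 CPM in the controls against 775, 730 and 863 in PCBP1-OE. Control replicate 3 was low among the controls and overlapped PCBP1-OE. Its log2 fold change of -0.23 was the lowest of the 13 but had a standard error of 0.090 (edgeR adjusted p = 0.108). It was -0.15 without control replicate 1 (adjusted p = 0.376) and -0.35 without control replicate 3, where it was called (adjusted p = 0.000679), as it was without a filter on low counts.

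The other 4 subunits of complex I had unadjusted p-values above 0.05. Mt-nd2 (ENSRNOG00000031033) and Mt-nd5 (ENSRNOG00000029971), both proton-pumping subunits, had log2 fold changes of -0.059 and -0.019 with standard errors of 0.050 and 0.048. That of Mt-nd2 was -0.024 without control replicate 1, -0.016 without PCBP1-OE replicate 1 and -0.091 without PCBP1-OE replicate 3. Mt-nd4l (ENSRNOG00000031053) had 296, 291 and 348 CPM in the controls against 347, 339 and 313 in PCBP1-OE. These values overlapped, and the log2 fold change was 0.094 with a standard error of 0.065. Mt-nd6 (ENSRNOG00000029042) is the one protein-coding gene read from the opposite strand of the circle. It had 173, 165 and 101 CPM in the controls against 149, 114 and 133 in PCBP1-OE, with wide overlap and a log2 fold change of -0.14 with a standard error of 0.15. The sources used here do not give the strand setting of the counting, so reads of both strands may not have been told apart at this gene. The edgeR adjusted p-values of these 4 genes lay between 0.365 and 0.826. Without control replicate 3, the same test called Mt-nd6 lower (log2 fold change -0.36, adjusted p = 0.00445, against 0.0793 to 0.997 in the other alternatives) and Mt-nd4l higher (0.18, adjusted p = 0.0162, against 0.232 to 0.732). Other libraries moved them as well. Mt-nd6 was at -0.0015 without control replicate 1, -0.044 without control replicate 2, -0.25 without PCBP1-OE replicate 1 and -0.048 without PCBP1-OE replicate 2, and Mt-nd4l at 0.054 without control replicate 2.

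In complex V, Mt-atp6 (ENSRNOG00000031979), part of the proton channel, had 10618, 10320 and 9418 CPM in the controls against 8629, 9029 and 9726 in PCBP1-OE. The third libraries of both groups were again in reversed order. Its log2 fold change was -0.15 (standard error 0.055, edgeR adjusted p = 0.0986). Mt-atp8 (ENSRNOG00000033299), a small subunit next to that channel, had 1616, 1631 and 1591 CPM in the controls against 1605, 1617 and 1675 in PCBP1-OE. These 6 values nearly coincided, and the log2 fold change was 0.018 (standard error 0.041, edgeR adjusted p = 0.817), within 0.0061 to 0.031 with 1 library left out.

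The composition of the mitochondrial mRNA pool does not depend on how libraries are scaled, so each protein-coding gene was also expressed as a percent of all mitochondrial protein-coding counts in its library. Of the 13 genes, 3 took a larger share in every PCBP1-OE library than in every control, and none took a smaller share in every library. Of all genes tested, 14.1% were higher in this sense in their TMM-scaled counts. The share of Mt-nd2 was 11.2%, 10.9% and 11.1% in the controls against 11.4%, 11.7% and 11.6% in PCBP1-OE. That of Mt-nd5 was 3.84%, 3.69% and 3.76% in the controls against 4.28%, 3.91% and 3.98% in PCBP1-OE. That of Mt-atp8 was 1.94%, 2.0% and 2.05% in the controls against 2.28%, 2.19% and 2.15% in PCBP1-OE. These are the 3 protein-coding genes whose log2 fold changes lay closest to 0, so that their shares were larger where the pool as a whole was smaller. Each had p = 0.1, the smallest the exact permutation test allows, so none could pass. The other 10 overlapped. Mt-co2 had the largest difference among them, with 9.5%, 9.44% and 8.90% in the controls against 8.38%, 8.76% and 9.18% in PCBP1-OE. Mt-co1 and Mt-cytb kept nearly the same mean share, with differences of 0.0561 and 0.0556 points. With control replicate 3 left out 8 of the 13 had no overlap, 5 higher and 3 lower, where 50.6% of all genes tested had none in their TMM-scaled counts. With PCBP1-OE replicate 3 left out it was 6, 4 higher and 2 lower, beside 44.7%.

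**Figure D3:**
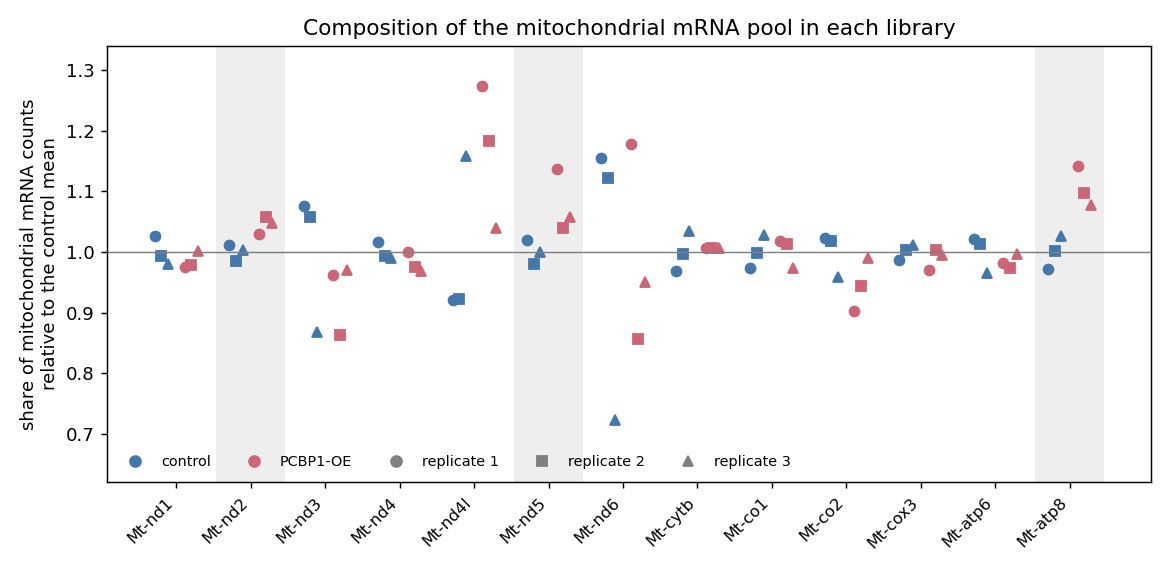
Share of each of the 13 mitochondrial protein-coding genes in the mitochondrial protein-coding counts of a library, divided by the mean share in the 3 controls, so that 1 on the vertical axis is the control mean. Blue points are control libraries and red points PCBP1-OE libraries, with a symbol for each replicate, and the genes follow the order of complexes I, III, IV and V. Grey bands mark Mt-nd2, Mt-nd5 and Mt-atp8, whose groups do not overlap, while Mt-nd4l and Mt-nd6 spread most within groups.

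Mt-atp8 and Mt-atp6 are read from one bicistronic mRNA in which their reading frames overlap, and so are Mt-nd4l and Mt-nd4. Reads in the overlap could be counted for either gene or for neither, so these counts are uncertain. The ratio of Mt-atp8 to Mt-atp6 counts, which was looked at after the data were seen, was 0.152, 0.158 and 0.169 in the controls against 0.186, 0.179 and 0.172 in PCBP1-OE. All PCBP1-OE libraries lay higher, and the exact permutation test gave p = 0.1. The ratio of Mt-nd4l to Mt-nd4 was 0.0372, 0.0381 and 0.0479 in the controls against 0.0523, 0.0498 and 0.0441 in PCBP1-OE. Control replicate 3 lay above PCBP1-OE replicate 3 here, so these groups overlapped (exact permutation p = 0.2). The ratios compare libraries and do not compare the amounts of 2 genes.

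The 2 rRNA genes spread more between libraries than between groups. Their summed share was 0.377%, 0.227% and 0.180% of counts in the controls against 0.260%, 0.377% and 0.479% in PCBP1-OE. Control replicate 1 was nearly level with PCBP1-OE replicate 2, and PCBP1-OE replicate 1 lay among the controls. The mean was 0.262% ± 0.103 in the controls against 0.372% ± 0.110 in PCBP1-OE (SD, n = 3 each), and the difference of 0.111 points had p = 0.2 in the exact permutation test. It was 0.168 points without control replicate 1, 0.167 without PCBP1-OE replicate 1, 0.0701 without control replicate 3 and 0.0571 without PCBP1-OE replicate 3. The ratio of rRNA to protein-coding counts, which needs no library scaling, was 0.0469, 0.0284 and 0.0231 in the controls against 0.0358, 0.0501 and 0.0620 in PCBP1-OE. These values overlapped too (exact permutation p = 0.2), and their difference of 0.0165 was 0.0102 without PCBP1-OE replicate 3. The files do not say which of the 2 genes encodes the large and which the small ribosomal RNA.

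Both genes followed the same order across libraries. AY172581.24 (ENSRNOG00000043866) had 2221, 1352 and 1067 CPM in the controls against 1495, 2110 and 2741 in PCBP1-OE. AY172581.9 (ENSRNOG00000030478) had 1676, 965 and 728 CPM in the controls against 1026, 1599 and 2088 in PCBP1-OE. Their counts stayed in a ratio between 1.31 and 1.47 in the 6 libraries, while each gene varied by more than 2-fold within the controls. Their log2 fold changes were 0.45 and 0.48, with standard errors of 0.23 and 0.26 and edgeR adjusted p-values of 0.210 and 0.240. Each moved by over 1.5 times with single libraries, to 0.81 and 0.90 without control replicate 1, 0.24 and 0.25 without control replicate 3, and 0.23 for both without PCBP1-OE replicate 3. Of the alternatives, the fit without a filter was the one that called them.

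Nuclear RNAs that lack a poly-A tail were set beside the rRNAs, as a rough measure of RNA that poly-A selection leaves in. Small nucleolar RNAs held the largest part of their counts in each library, and reads there were not told apart from those of longer RNAs. All types together took 0.0106%, 0.00878% and 0.00811% of counts in the controls against 0.00927%, 0.0128% and 0.0134% in PCBP1-OE. Control replicate 3 was lowest and PCBP1-OE replicate 3 highest, as for the mitochondrial rRNAs, and the groups overlapped (exact permutation p = 0.2). In PCBP1-OE replicate 3 a single row, 5_8S_rRNA, held 414 counts and was at 0 in the other 5 libraries. Without the 5.8S rRNA genes, an alternative chosen after the data were seen, the values in CPM of total counts were 105, 87.6 and 81.0 CPM in the controls against 92.6, 127 and 112 CPM in PCBP1-OE, and PCBP1-OE replicate 2 was then the highest.

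Among single genes chosen after their values were seen, RNase_MRP, the RNA of an endoribonuclease that cuts ribosomal precursors, was also lowest in control replicate 3 and highest in PCBP1-OE replicate 3. It had 5.67, 2.35 and 1.48 CPM in the controls against 3.46, 6.15 and 7.5 in PCBP1-OE, on total counts. On the same scale control replicate 1 and PCBP1-OE replicate 2 had 3769 and 3775 CPM of mitochondrial rRNA, and their order turned under TMM scaling (0.390% and 0.371%). The other 4 libraries had the same order for both RNAs, on either side of this pair. The rows named RNaseP_nuc, the RNA of nuclear RNase P, summed to 9.67, 4.05 and 2.78 CPM in the controls against 6.32, 17.5 and 14.5 in PCBP1-OE. Here PCBP1-OE replicate 2 was the highest. By gene type, in CPM of total counts, nuclear rRNA genes had 19.8, 11.8 and 11.9 in the controls against 16.2, 32.4 and 42.6 in PCBP1-OE, which overlapped. PCBP1-OE replicate 3 was highest only through the 5.8S row, which held 414 of its 840 counts, while PCBP1-OE replicate 2 had 642 counts. The most counted row of this type, a 5S rRNA, had 338, 182 and 199 counts in the controls against 293, 567 and 353. Small nuclear RNAs had 7.30, 8.19 and 6.95 CPM in the controls against 8.56, 10.3 and 10.4, and small Cajal body RNAs 2.42, 2.26 and 2.06 against 2.81, 4.74 and 4.36, both higher in every PCBP1-OE library. Small nucleolar RNAs, at 60.7, 59.2 and 55.9 CPM against 55.4, 56.6 and 54.9, overlapped and were lowest in PCBP1-OE replicate 3. The part of RNA without poly-A tails in the mitochondrial shares was not tested.

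**Figure D4:**
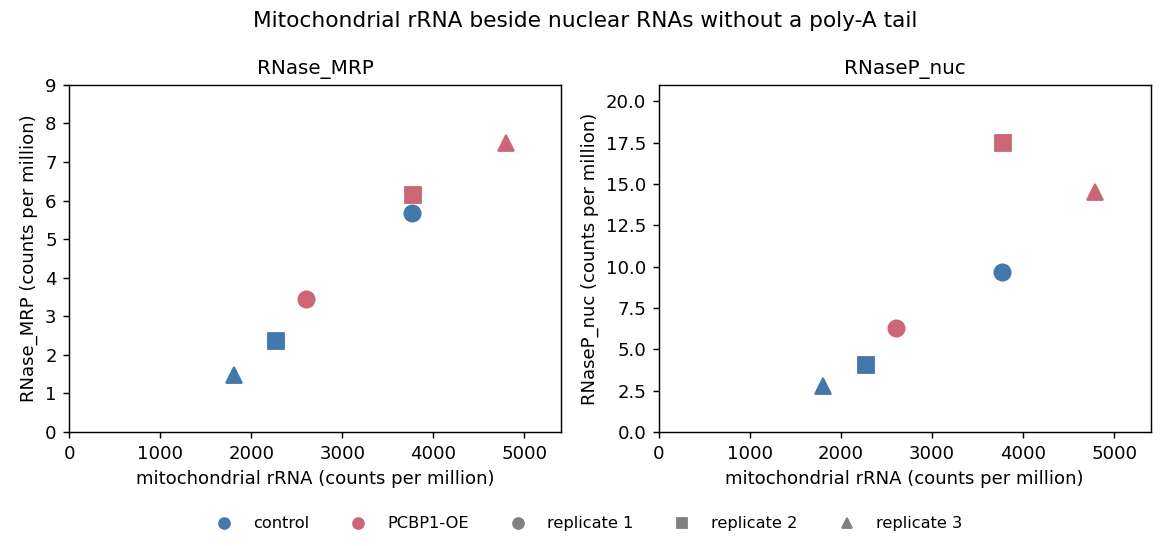
Mitochondrial rRNA in CPM on the horizontal axis against RNase_MRP (left) and the summed RNaseP_nuc rows (right) in CPM, with 1 point per library, controls in blue and PCBP1-OE in red. All CPM are of total counts. Mitochondrial rRNA runs from 1805 CPM in control replicate 3 to 4795 CPM in PCBP1-OE replicate 3, and at nearly equal rRNA control replicate 1 and PCBP1-OE replicate 2 had 9.67 and 17.5 CPM of RNaseP_nuc.

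The 22 tRNA genes were counted little, with 960, 1112 and 1188 counts per library in the controls against 1423, 1171 and 1085 in PCBP1-OE. As shares these were 0.00474%, 0.00523% and 0.00532% in the controls against 0.00666%, 0.00591% and 0.00550% in PCBP1-OE. Every PCBP1-OE library lay above every control, by a mean of 0.000925 points and a ratio of 1.18 (exact permutation p = 0.1, the smallest possible), and by 0.000606 points without PCBP1-OE replicate 1. The closest libraries were not separable at this depth, since the 95% Wilson intervals of control replicate 3 (0.00503 to 0.00564%) and PCBP1-OE replicate 3 (0.00518 to 0.00584%) overlapped. The order across libraries differed from that of the rRNAs, because PCBP1-OE replicate 1 was highest for tRNA and lowest of its group for rRNA. The amino acids these tRNAs carry are not named in the table and are not given here.

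Most tRNA counts came from 3 genes. AY172581.15, AY172581.14 and AY172581.19, the tRNA genes with the highest mean counts, held 85.3 to 90.4% of them in each library. AY172581.15 (ENSRNOG00000032274) had 20.4, 21.3 and 26.5 CPM in the controls against 28.5, 28.8 and 25.6 in PCBP1-OE. The third libraries overlapped, and the log2 fold change was 0.28 (standard error 0.10, edgeR adjusted p = 0.0874). AY172581.14 (ENSRNOG00000032112) had 12, 11.4 and 12.5 CPM in the controls against 14.9, 14.3 and 15 in PCBP1-OE. All 3 PCBP1-OE libraries were higher, with little spread in either group. Its log2 fold change was 0.30 (standard error 0.095, 95% confidence interval 0.10 to 0.51, edgeR adjusted p = 0.0624). Without control replicate 3 both were called (adjusted p = 0.00294 for AY172581.15 and 0.0356 for AY172581.14), and without a filter on low counts AY172581.15 was (0.0148). AY172581.19 (ENSRNOG00000032882) had 9.89, 12.7 and 8.21 CPM in the controls against 13.7, 9.32 and 8.99 in PCBP1-OE, and its groups overlapped widely (log2 fold change 0.061, standard error 0.18).

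AY172581.21 (ENSRNOG00000033545) went the other way. It was counted 36, 41 and 36 times in the controls against 27, 7 and 11 times in PCBP1-OE. All PCBP1-OE libraries were lower, and replicates 2 and 3 were well below replicate 1. It fell by 1.31 on the log2 scale (95% confidence interval -2.09 to -0.53, edgeR adjusted p = 0.0407), and over the alternatives with an adjusted p that value ranged from 0.00088 to 0.168. The call rests on few counts and was lost without control replicate 1 (0.123) or 2 (0.168) or PCBP1-OE replicate 2 (0.143) or 3 (0.113), in the same edgeR test. Without PCBP1-OE replicate 1 the fold change was -1.98 (adjusted p = 0.0398), and without PCBP1-OE replicate 2 it was -0.99, less than 2-fold. The remaining 4 tRNA genes tested did not pass in edgeR. Among them AY172581.12 (ENSRNOG00000031685) had 8, 10 and 7 counts in the controls against 18, 13 and 12 in PCBP1-OE. It was higher in every PCBP1-OE library (log2 fold change 0.79, standard error 0.38, edgeR adjusted p = 0.19), at few counts, and the others overlapped. The 14 tRNA genes left out had 0 to 11 counts per library, of which 5 were at 0 in at least 1 library. A count of 0 allows up to 3 counts, or 0.134 to 0.152 CPM at these depths.

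The proteins that transcribe, cut, tail and degrade mitochondrial RNA come from the nuclear genome. A list of 53 nuclear genes was used, of which 50 were matched and 48 tested. Most act on mitochondrial RNA, including its modification, and some, such as Polg, Ssbp1 and Mgme1, on the copying and upkeep of mitochondrial DNA. Of the 48, 5 passed an FDR of 0.05 in edgeR, 3 higher and 2 lower in PCBP1-OE, none by 2-fold. The median log2 fold change was 0.049, against 0.0029 over all genes, and 32 of the 48 were above 0, beside 6370 of the 12624 genes tested. A share of 5 in 48 is close to the 9.45% of all genes. The count was 0 without control replicate 1 or 2 or PCBP1-OE replicate 1 or 2, where 0.375 to 1.92% of all genes were called. It was 2 without PCBP1-OE replicate 3, beside 5.42% of all genes, and 10 of 49 without control replicate 3, which is near the 22.3% of all genes called in that fit.

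Both directions occurred within mitochondrial RNase P, the enzyme that frees the front ends of tRNAs and is built from Trmt10c, Hsd17b10 and Prorp. Trmt10c, its methyltransferase subunit, had 50.9, 51.5 and 49.1 CPM in the controls against 57.9, 59.3 and 56.5 in PCBP1-OE. The groups were well apart, and it rose by a log2 fold change of 0.20 (standard error 0.051, edgeR adjusted p = 0.0323). Hsd17b10, the dehydrogenase subunit, had 98.7, 100 and 93.8 CPM in the controls against 82.3, 82.5 and 90.9 in PCBP1-OE. It was lower in all 3 libraries, with replicate 3 nearest to the controls, and its log2 fold change was -0.19 (standard error 0.052, edgeR adjusted p = 0.0365). Both calls held without control replicate 3 or PCBP1-OE replicate 3 and were lost without any one of the other 4 libraries. Prorp, the nuclease, was added after its values were seen because it completes the enzyme. It had 19.0, 23.2 and 22.1 CPM in the controls against 22.2, 24.8 and 25 in PCBP1-OE, which overlapped (log2 fold change 0.16, edgeR adjusted p = 0.278).

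Among genes for tails and decay, Pde12, a phosphodiesterase that removes poly-A tails in mitochondria, had 15, 14.1 and 15.7 CPM in the controls against 18.4, 19.7 and 18.2 in PCBP1-OE. It rose by a log2 fold change of 0.33 (standard error 0.089, edgeR adjusted p = 0.0394), with no overlap. Mtpap, the polymerase that adds those tails, had 46.4, 50.2 and 53.2 CPM in the controls against 56.1, 55.7 and 58.8 in PCBP1-OE. Its libraries did not overlap either, but it did not pass (log2 fold change 0.19, standard error 0.059, edgeR adjusted p = 0.0650). It was called under upper-quartile scaling (0.0493), without a filter (0.0240) and without control replicate 3 (0.0104). Rexo2, an exonuclease that clears very short RNAs, had 159, 154 and 142 CPM in the controls against 131, 130 and 141 in PCBP1-OE. The third libraries were almost level, and its log2 fold change was -0.18 (standard error 0.052, edgeR adjusted p = 0.0488). Ptcd2, a pentatricopeptide repeat protein that acts in processing of cytochrome b RNA, had 29.9, 30.9 and 32.5 CPM in the controls against 36.5, 34.8 and 37.8 in PCBP1-OE. It rose by a log2 fold change of 0.23 (standard error 0.065, edgeR adjusted p = 0.0463). The calls of Pde12, Rexo2 and Ptcd2 held without control replicate 3 and were lost without any other single library, that of Rexo2 was also lost under RLE and upper-quartile scaling, and that of Ptcd2 in DESeq2.

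The other core factors chosen, for mitochondrial transcription, DNA copying and the stability and decay of RNA, did not pass the main test. Log2 fold changes were 0.064 for the RNA polymerase Polrmt, 0.099 for the packaging and initiation factor Tfam, 0.066 for the initiation factor Tfb2m and 0.16 for Twnk, the helicase of DNA replication, with standard errors of 0.074, 0.048, 0.064 and 0.074. For Lrpprc and Slirp, which bind each other and stabilise mitochondrial mRNAs, they were 0.050 and -0.12, with standard errors of 0.045 and 0.071. Slirp was called lower without control replicate 3 (-0.20, adjusted p = 0.0285), and was at -0.061 without control replicate 2 and -0.071 without PCBP1-OE replicate 1. The RNA granule protein Grsf1 was at 0.037, and the degradation pair Supv3l1 and Pnpt1 was at 0.042 and 0.075. Several of these small values moved by over 1.5 times with 1 library left out. Without control replicate 2 Pnpt1 was at 0.026 and Supv3l1 at 0.12, and without control replicate 3 they were at 0.12 and -0.032. Without PCBP1-OE replicate 1 Tfb2m was at 0.041 and Grsf1 at 0.024, and without PCBP1-OE replicate 2 Lrpprc was at 0.029 and Grsf1 at 0.060. Without PCBP1-OE replicate 3 Lrpprc was at 0.088 and Supv3l1 at 0.064. The edgeR adjusted p-values of these 9 genes lay between 0.175 and 0.748.

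**Figure D5:**
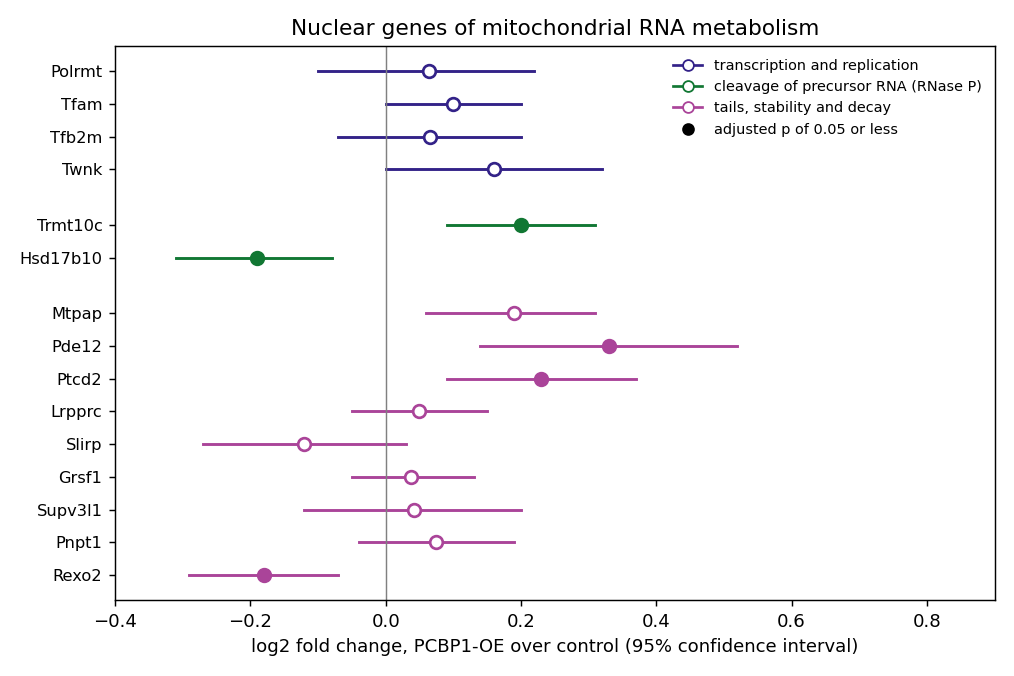
Log2 fold change of PCBP1-OE over control with 95% confidence intervals for 15 nuclear genes of mitochondrial RNA metabolism and DNA copying, coloured by role. Filled points passed an FDR of 0.05 in edgeR's quasi-likelihood test. Trmt10c and Hsd17b10 lie on opposite sides of 0, at 0.20 and -0.19, and Polrmt, Tfam and Tfb2m lie near 0.

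Charging of mitochondrial tRNAs was followed with a list of 22 genes, aminoacyl-tRNA synthetases and the amidotransferase subunits Qrsl1, Gatb and Gatc, which complete the glutamine tRNA. Of these 21 were matched in 22 rows, since Ears2 has 2 rows, 1 of them typed as a pseudogene. Kars and Gars in this list also serve the cytosol. None of the 22 rows passed an FDR of 0.05 in edgeR, limma-voom or DESeq2, which gave 1 row no adjusted p. Of 12624 genes edgeR and limma-voom called 9.45% and 9.48%. DESeq2 called 6.63% of 20609, a base that includes genes without an adjusted p. In edgeR 2 were higher and 1 lower at an unadjusted p under 0.05, beside 13.6% and 14.8% of all genes, and the median log2 fold change was 0.0033. Hars2, which charges the histidine tRNA, came nearest and was chosen after its values were seen. It had 56.3, 49.6 and 53.6 CPM in the controls against 61.8, 61.1 and 58.9 in PCBP1-OE. The groups did not overlap, and the log2 fold change was 0.19 (standard error 0.056, edgeR adjusted p = 0.0517). It was called under upper-quartile scaling, without a filter and with a filter of 1 CPM. Without control replicate 3, edgeR called 3 rows of this list and 22.3% of all genes.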

How the data were processed

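The authors deposited raw gene counts of uniquely mapped reads. By their methods, reads had been trimmed with FASTX-Toolkit and aligned to Rnor_6.0 with TopHat2. The submitters' processing notes list GRCh38, a human build, although the gene identifiers are those of rat. The labels name a Vazyme stranded mRNA kit and the paper a Roche kit. The methods cite a reference for the counting without naming the tool.

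Counts were tested with edgeR 4.0.16 in R 4.3.3 (quasi-likelihood test, TMM scaling, filterByExpr with a minimum count of 10 and a minimum total of 15), fitted on all genes with Benjamini-Hochberg adjustment. This left out 7985 genes. CPM of tested genes are TMM-scaled, and those of marker sums, nuclear RNA without poly-A tails and summed rRNA are of total counts. Alternatives were RLE, upper-quartile and nuclear-gene scaling, other filters, DESeq2 1.42.0, limma-voom (limma 3.58.1), leaving out each library and a block on the replicate number. The pipeline was tested on simulated data. Shares and ratios were tested with two-sided exact permutation tests over libraries in Python 3.11.15 (scipy 1.17.1).

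Named genes were every protein-coding and rRNA member, called tRNAs and the 3 with the highest mean count, and of the nuclear lists the called genes and 10 core factors. AY172581.12 was added after its values were seen. Of the RNA metabolism list, 8 genes were matched through RefSeq synonyms (assembly GRCr8, names only). Members and lists were chosen with earlier results of these data known. Sequences and gene lengths were not used here, so levels were not compared between genes.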

Additional observations from a re-analysis of the deposited data

How the results depend on the processing

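The differences in the 4 mitochondrial shares, in the ratio of rRNA to protein-coding counts and in the share of nuclear RNA without poly-A tails kept their sign under every alternative run, although none could pass 0.05 in these permutation tests. Over the TMM effective library size the difference was -0.570 points for the total share and -0.672 for the protein-coding share, against -0.335 and -0.446. With 1 library left out, the difference ranged from -0.499 to -0.156 points for the total share, 0.0571 to 0.168 for rRNA and 0.000606 to 0.00119 for tRNA, and from 0.0102 to 0.0236 for the ratio. Counts of calls moved more. The number of mitochondrially encoded genes called was 12 without a filter on low counts, 6 in DESeq2 (which gave 19 of the 37 no adjusted p), 2 in limma-voom and 0 to 12 with 1 library left out. The same fits called 2090 of all genes without a filter, 1367 in DESeq2, 1197 in limma-voom and 48 to 2860 with 1 library left out, and 8.57% of all genes under upper-quartile scaling and 10.4% with a filter of 1 CPM. For the nuclear genes of RNA metabolism it was 0 to 10 with 1 library left out. For the aminoacyl-tRNA synthetase list it was 1 under upper-quartile scaling, 2 without a filter, 1 with a filter of 1 CPM in 3 libraries and 0 to 3 with 1 library left out. In the mRNA pool, 3 to 8 genes had groups without overlap when 1 library was left out, beside 36.5 to 50.6% of all genes. The cause was not tested for any of these.

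Some signs turned. The log2 fold change of Mt-nd5 went to 0.00032 under upper-quartile scaling and lay between -0.048 and 0.024 with 1 library left out, above 0 without control replicate 1 or PCBP1-OE replicate 2 (0.0074). That of AY172581.19 lay between -0.17 and 0.25, below 0 without PCBP1-OE replicate 1 or control replicate 3 (-0.081), and that of Supv3l1 between -0.032 (without control replicate 3) and 0.12. The difference in the ratio of the 2 rRNA genes went from -0.0337 to 0.000339 without control replicate 3. The cause was not tested.

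No positive pairing by replicate number was seen. Deviations of libraries with the same number had correlations of -0.104, -0.0813 and -0.107, against 0.0151 to 0.0827 for different numbers. No library correlated best with its own number. The sample titles number the libraries but do not say whether they were prepared as pairs. With the replicate number as a block, edgeR called 0 mitochondrially encoded genes, 0 genes of the RNA metabolism list and 16 of all genes.

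The 14 tRNA genes with at most 11 counts per library were left out by the filter of the main test. The fit without a filter tested all 37 members, and none of these 14 was among the 12 it called. Counts this low leave their changes uncertain.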
